A study of Mus musculus with 24 samples.

Results

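Reticulocytes of a mutant mouse line were compared with wild-type reticulocytes after 24 h of culture. The comparison took the 5 arrays labelled mutant at 24 h and the 3 labelled wild type at 24 h, which are 8 of the 24 arrays of the series. The arrays were chosen by their labels alone and were normalized without the arrays of other times. Blood rich in reticulocytes was drawn, kept ex vivo and sampled at 0, 12 and 24 h, and every time has 5 mutant and 3 wild-type biological replicates. All mice were adult C57BL/6J males. The labels call the genotypes only mutant and wild type: they give neither the mutated gene nor how many lines or litters the mice came from, so no targeted gene could be checked.

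A reticulocyte is the last precursor of the red blood cell. It has already lost its nucleus, so it makes no new nuclear transcripts, and the levels of its messages depend largely on how long each one lasts. Over its maturation it breaks down ribosomes and removes mitochondria and other organelles through ubiquitin-dependent degradation and autophagy, while globin and heme synthesis run down.

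Each array measured RNA with beads carrying gene probes, and values are given as normalized log2 intensity, on which a difference of 1 is a doubling. A probe counted as detected when its detection p-value was below 0.01. Mutant arrays had 10.16%, 12.62%, 15.66%, 18.27% and 15.61% of probes detected, against 7.31%, 7.72% and 6.93% on wild-type arrays. Every mutant array thus had a larger share detected than any wild-type array. The mutant mean was 14.5 ± 3.13% (SD, n = 5), the wild-type mean was 7.32 ± 0.393% (SD, n = 3), and the difference of 7.14 percentage points had p = 0.0357 (exact two-sided permutation test over 56 splits, smallest possible p 0.0179). Over the tested genes, pairs of mutant arrays correlated at 0.943 to 0.988, pairs of wild-type arrays at 0.958 to 0.987, and mutant with wild-type arrays at 0.847 to 0.919.

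The label reticulocyte was checked against 17 marker genes of that cell on the array, of which 15 were detected somewhere and 2, Epb42 and Rhd, on no array. Their summed intensity ranged from 100262 to 107851 on mutant arrays and from 95980 to 103371 on wild-type arrays. The alpha-globin gene Hba-a1, the erythroid heme enzyme gene Alas2 and the anion exchanger gene Slc4a1 were detected on all 8 arrays. Hba-a1 averaged 14.94 in mutant and 14.91 in wild type, a difference of 0.03 ± 0.05 (SE). Alas2 differed by -0.09 ± 0.05, and neither passed the test. Quantile normalization gives the brightest probes tied values, and Hba-a1 read 14.8919 on mutant arrays 1, 2 and 5 and wild-type arrays 1 and 3. These small differences and the similar sums are therefore partly set by it and do not show equal reticulocyte RNA. With the authors' processed values Hba-a1 was called lower at -0.77 (adjusted p = 0.0126) and Alas2 lower at -0.84 (adjusted p = 0.00787). Signal of other blood cells was present too. Wild-type array 3 stood apart from the other wild-type arrays in platelet markers, whose sum was 11451 there, against 2130 and 2692 on wild-type arrays 1 and 2. These are bulk samples, so fewer cells of a type and less RNA per cell cannot be told apart.

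Of 2958 genes tested, 1824 passed the threshold of an adjusted p below 0.05, which is 61.7% of them. Of all tested genes 38.4% were called higher in mutant and 23.3% lower. A single call therefore says little, and the counts of gene groups below stand against these shares. The mutant and wild-type arrays did not overlap for 49.9% of genes, with all mutant arrays above in 28.3% and all below in 21.7%. The middle gene of the whole table had a log2 difference of 0.25. A gene passed the detection filter with 3 arrays, so 1257 tested genes entered through mutant arrays alone and 18 through wild-type arrays alone, which favours calls in the direction of the detecting group and is no result about those genes: 678 of the 1257 were called higher and 22 lower, and the 18 were called lower. Rexo2, Snx3, Otub1 and Top2a, given below, are among the 18. With no detection filter 46.2% of calls were higher. Of the 1121 genes detected on all 8 arrays, 301 were called higher and 462 lower. The balance of directions depended on scaling: 62.2% of calls were higher here, against 88.2% when arrays were centred on their medians and 77.9% with the authors' processed values, and the median log2 difference of all genes was then 0.58 and 0.22. Size separated the genes further. Among calls of at least 2 log2 units, 42 were lower in mutant and 8 were higher. All 50 kept their call and direction under each of the 22 alternative settings that tested them. Of the 458 calls of at least 1 log2 unit, 237 did so. Sizes moved with the setting, and whether each gene stayed past 2 log2 units was not checked. Over the settings Dmtn ranged from -2.66 to -1.58 and Mat2b from -2.87 to -1.64. Prdx3 and Psma2, rises below 2 here, ranged from 1.55 to 2.71 and from 1.665 to 2.60. The counts of 42 and 8 therefore belong to the scaling used here. Of 134 called genes followed by name through the settings, 20 lost their call or direction with median centring, 14 with the authors' processed values and 36 with normalization and fit on all 24 arrays, in which 31.4% of tested genes were called against 61.7% here. Values under another scaling are given below for many of these genes but not for all, and losses with all 24 arrays are mostly not marked. A gene without such a value may therefore have lost its call too. With median centring Adipor1 was at -0.11 and Memo1 at -0.48, and neither was called.

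**Figure D1:**
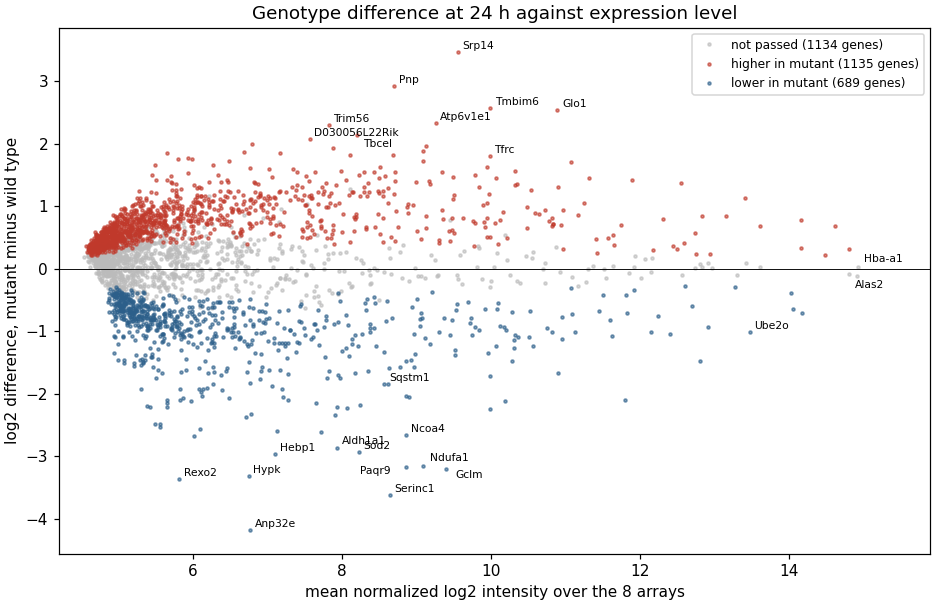
Log2 difference between genotypes at 24 h (mutant minus wild type, vertical axis) against the mean normalized log2 intensity over the 8 arrays (horizontal axis), 1 point per tested gene. The largest differences lie below 0, where Anp32e is at -4.18 and Serinc1 at -3.63, and Srp14 at 3.47 is the highest point. Hba-a1 and Alas2 lie near 0 at the bright end, where quantile normalization ties values between arrays.

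The transcript with the largest rise in mutant reticulocytes was Srp14, which encodes a subunit of the signal recognition particle that guides secretory proteins to the endoplasmic reticulum. Srp14 had log2 intensities of 10.85, 10.85, 10.92, 10.64 and 11.04 on mutant arrays, against 7.47, 7.49 and 7.21 on wild-type arrays. All mutant arrays lay more than 3 log2 units above all wild-type arrays. The difference was 3.47 ± 0.14 (SE, adjusted p = 1.38e-08), or 11.1-fold. Pnp, the purine nucleoside phosphorylase of nucleotide salvage, followed with a difference of 2.92 ± 0.28. Its mutant arrays were more spread, from 8.94 on array 4 to 10.33 on array 1, yet all stood above the wild-type range of 6.40 to 7.13. Tmbim6, an endoplasmic reticulum membrane protein that restrains cell death, read 11.12, 10.92, 11.04, 10.68 and 11.01 in mutant and 8.39, 8.44 and 8.32 in wild type, and its difference was 2.57 ± 0.13 (adjusted p = 7.38e-08).

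Glo1, which detoxifies methylglyoxal formed in glycolysis, rose on all mutant arrays. Its values were 12.05, 11.95, 11.74, 11.62 and 11.88 on mutant arrays, against 9.59, 9.59 and 8.72 on wild-type arrays, a difference of 2.55 ± 0.19 (adjusted p = 1.33e-06). Wild-type array 3 was the lowest for Glo1, and the groups stayed apart. Atp6v1e1, a subunit of the proton pump that acidifies lysosomes, differed by 2.33 ± 0.23. Trim56, a ubiquitin ligase known from antiviral signalling, differed by 2.30 ± 0.22. Tbcel, a protein that acts on tubulin, differed by 2.14 ± 0.25, and D030056L22Rik by 2.08 ± 0.19. The other rises were Hbp1, a transcriptional repressor (1.997 ± 0.23), the mitochondrial peroxidase gene Prdx3 (1.93 ± 0.22), the proteasome core subunit gene Psma2 (1.89 ± 0.19) and the DNA topoisomerase gene Top1 (1.87 ± 0.19). Hbp1 and Top1 were each detected on 2 of 3 wild-type arrays. Their further probes differed by 0.92 and 2.02.

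Falls of at least 2 log2 units outnumbered such rises with the scaling used here. Anp32e, a chaperone that removes the histone variant H2A.Z from chromatin, had 5.25, 5.36, 5.15, 4.91 and 5.35 in mutant against 9.40, 9.42 and 9.33 in wild type. The difference was -4.18 ± 0.16 (adjusted p = 1.38e-08), and the arrays of each group lay close together. Serinc1, a membrane protein of the family linked to serine incorporation into lipids, had 7.62, 7.23, 7.36, 6.81 and 7.40 in mutant against 11.07, 11.08 and 10.58 in wild type, and fell by 3.63 ± 0.20. Rexo2, a mitochondrial nuclease that degrades short RNA, was not above background on any mutant array, while wild-type arrays read 8.03, 8.10 and 7.62. It was therefore at least 8.68-fold lower in mutant, where such a bound sets the wild-type mean against the lowest detected signal of each mutant array. Hypk, a ribosome-associated partner of the N-terminal acetyltransferase, differed by -3.31 ± 0.17.

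The other genes among the 12 largest falls have varied roles. Gclm, the modifier subunit of glutamate-cysteine ligase, which makes the precursor of glutathione, had 8.51, 8.22, 8.36, 7.61 and 8.30 on mutant arrays, against 11.57, 11.35 and 11.28 on wild-type arrays, a difference of -3.20 ± 0.19 (adjusted p = 2.80e-07). Sod2, the manganese superoxide dismutase of mitochondria, had 7.37, 7.41, 7.12, 6.80 and 6.95 in mutant and 10.18, 10.18 and 9.82 in wild type, a difference of -2.93 ± 0.18 (adjusted p = 3.21e-07). For both genes each mutant array lay more than 2 log2 units below each wild-type array. Hebp1, a heme-binding protein, differed by -2.97 ± 0.19, and Aldh1a1, a retinaldehyde dehydrogenase, by -2.86 ± 0.18. Ndufa1, a small subunit of respiratory complex I, differed by -3.16 ± 0.16, the membrane receptor gene Paqr9 by -3.18 ± 0.16 and Mat2b, the regulatory subunit of methionine adenosyltransferase, by -2.67 ± 0.17. Further probes of Paqr9 and Mat2b gave -2.73 and -2.41. Ncoa4, the receptor that carries ferritin into autophagosomes, had 8.29, 8.06, 7.62, 7.42 and 7.94 in mutant against 10.29, 10.47 and 10.82 in wild type, a difference of -2.66 ± 0.21 (adjusted p = 1.66e-06). These 24 genes, the largest rises and falls among called genes whose groups did not overlap, kept their call and direction in each alternative setting that tested them.

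**Figure D2:**
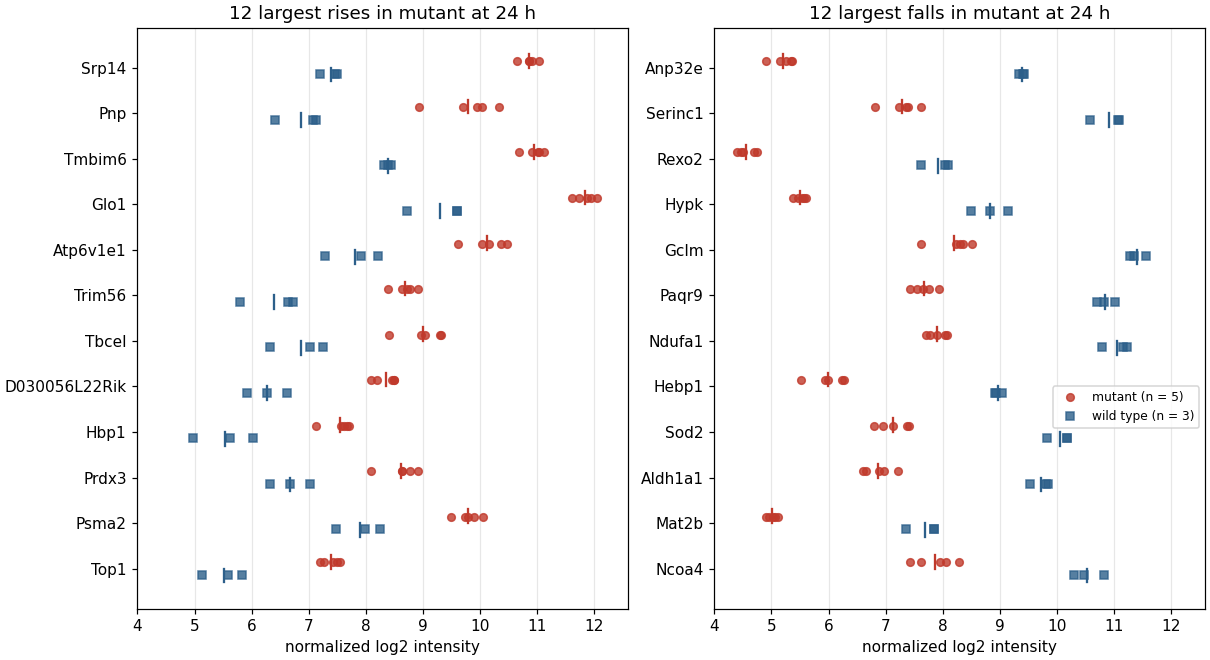
Normalized log2 intensity (horizontal axis) of the 12 largest rises (left) and 12 largest falls (right) at 24 h among called genes chosen to have no overlap between groups, with mutant arrays as red circles, wild-type arrays as blue squares and vertical ticks at group means. Ppbp, with a difference of 1.97 but overlapping groups, is left out by that choice. Anp32e has mutant arrays between 4.91 and 5.36 and wild-type arrays between 9.33 and 9.42.

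The promoters of 4 of these genes are shown because they include the largest rise and 3 enzymes of antioxidant and carbonyl defense that moved in opposite directions. They were picked after the values were seen. The sequences are from RefSeq on build GRCm38.p6, written in the direction of transcription from 250 bases before the start site to 50 after it. Capitals mark matches, on either strand, to CCAAT, the box bound by NF-Y, or to TGACNNNGC, the core of the antioxidant response element. The erythroid GATA motif (AGATAA or TGATAA) was searched too and matched none of the 4, and no 2 matches share a base.
Srp14, chr2:118479647-118479946, minus strand: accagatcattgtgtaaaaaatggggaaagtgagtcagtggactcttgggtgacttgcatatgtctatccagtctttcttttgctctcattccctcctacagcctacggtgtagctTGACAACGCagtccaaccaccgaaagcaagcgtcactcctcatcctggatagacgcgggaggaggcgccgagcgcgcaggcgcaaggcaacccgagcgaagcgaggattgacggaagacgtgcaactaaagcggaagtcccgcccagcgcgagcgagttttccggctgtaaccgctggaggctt
Glo1, chr17:30612610-30612909, minus strand: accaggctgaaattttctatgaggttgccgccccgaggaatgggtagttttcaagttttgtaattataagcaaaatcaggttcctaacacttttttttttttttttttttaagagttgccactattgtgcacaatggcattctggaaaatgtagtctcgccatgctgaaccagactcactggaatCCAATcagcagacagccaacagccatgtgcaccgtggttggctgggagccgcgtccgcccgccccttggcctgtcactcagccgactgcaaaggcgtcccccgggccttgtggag
Gclm, chr3:122245307-122245606, plus strand: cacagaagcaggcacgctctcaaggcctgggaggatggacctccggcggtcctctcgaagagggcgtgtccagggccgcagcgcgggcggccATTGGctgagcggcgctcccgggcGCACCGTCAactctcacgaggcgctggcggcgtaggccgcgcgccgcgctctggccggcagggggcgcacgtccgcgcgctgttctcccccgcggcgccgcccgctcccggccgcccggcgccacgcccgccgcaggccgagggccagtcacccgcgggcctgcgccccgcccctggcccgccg
Sod2, chr17:13007589-13007888, plus strand: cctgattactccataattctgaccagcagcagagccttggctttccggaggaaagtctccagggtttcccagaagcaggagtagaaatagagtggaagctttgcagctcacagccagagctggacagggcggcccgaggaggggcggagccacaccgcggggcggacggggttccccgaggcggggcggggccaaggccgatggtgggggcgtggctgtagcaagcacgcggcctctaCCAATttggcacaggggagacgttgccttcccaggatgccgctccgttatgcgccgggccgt
Srp14, which rose, and Gclm, which fell, both hold TGACNNNGC, while Glo1, which rose, and Sod2, which fell, both hold CCAAT. Over all tested genes with a promoter in the table (2439 genes), 40.3% held CCAAT, 15.2% TGACNNNGC and 11.8% a GATA motif. Among genes called higher by at least 1 log2 unit (183 with a promoter) the shares were 42.6%, 16.4% and 14.8%. Among genes called lower by as much (186 with a promoter) they were 43.5%, 14.5% and 11.3%. Over all promoters of the table they were 37.9%, 12.5% and 19.0%. A match describes the letters in this window and not binding.

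Heme synthesis genes moved in both directions. Of 16 tested members 5 rose and 3 fell (8 and 2 with median centring), with a median log2 difference of 0.000282. Urod, which decarboxylates uroporphyrinogen, had 13.10, 12.97, 13.29, 12.86 and 13.10 on mutant arrays, against 11.99, 11.95 and 11.12 on wild-type arrays, a difference of 1.38 ± 0.17. Slc25a38, the carrier linked to mitochondrial glycine import for heme, differed by 1.18 ± 0.15. Isca1, an assembly factor for iron-sulfur clusters, differed by -1.48 ± 0.07. Snx3, a sorting protein that recycles the transferrin receptor, was below background on all mutant arrays and at least 1.98-fold lower. Of 4 tested globin genes, embryonic Hbb-y fell by 0.88 (-0.25 and not called with median centring) and embryonic Hbb-bh1, detected on every mutant array and on no wild-type array, was at least 1.18-fold higher. Adult Hbb-b2 had a difference of -0.10, which did not pass and turned to 0.40 with median centring.

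Genes that take up, store and release iron were called on both sides, 3 higher and 2 lower of 7 tested. Tfrc, the transferrin receptor, had 10.94, 10.70, 10.68, 10.35 and 10.62 on mutant arrays, against 9.15, 8.99 and 8.44 on wild-type arrays. The groups were apart by more than 1 log2 unit, the difference was 1.80 ± 0.18 (adjusted p = 1.20e-05), and a further Tfrc probe gave 1.82. The call was lost only when detection filter, normalization and fit all used the 24 arrays of the series (adjusted p = 0.0782). Slc40a1, the iron exporter ferroportin, was detected on no wild-type array and was at least 1.73-fold higher. Fth1, ferritin heavy chain, rose by 0.32 ± 0.05, but with the authors' processed values its difference was -0.38. Ncoa4 (-2.66) and the iron chaperone gene Pcbp2 (-0.88 ± 0.15) fell, Pcbp2 with a value of -0.17 and no call under median centring.

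The ubiquitin system of maturing red cells had more falls than rises, 9 against 3 of 20 tested members, with a median of -0.28 that turned to 0.33 with median centring, where 4 fell and 7 rose. Ube2e3, a ubiquitin-conjugating enzyme, fell by 1.58 ± 0.20. Ube2o, the conjugating enzyme that marks ribosomal proteins in reticulocytes, had 12.97, 13.08, 13.08, 13.29 and 13.08 in mutant against 14.14, 14.05 and 14.14 in wild type, a difference of -1.01 ± 0.07 (adjusted p = 1.14e-06) that was called in every alternative setting. The deubiquitinase gene Otub1 was below background on all mutant arrays and at least 1.92-fold lower. The 3 rises were the ubiquitin ligase genes Rnf10 (0.78 ± 0.06) and Trim10 (0.85 ± 0.13) and the ligase adaptor gene Ubac1 (0.77), none of them called with the authors' processed values, where Rnf10 was at 0.20. The proteasome list ran the other way, with 13 higher and 4 lower of 28 tested (19 and 0 with median centring) and a median of 0.49, and 7 of the 28 were detected on no wild-type array. Beside Psma2, the assembly chaperone gene Pomp rose by 1.61 ± 0.23, the assembly chaperone gene Psmd10 by 1.47 ± 0.22 and the regulatory particle gene Psmd13 by 1.23 ± 0.19. Psme4, a proteasome activator, fell by 1.24 and the core subunit gene Psma5 by 1.04, and with median centring these were -0.52 and -0.32 and not called.

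Of 16 autophagy genes tested 7 were higher and 7 lower, a split that depended on scaling and filter: it was 8 and 3 with median centring, 2 and 7 of 10 with probes detected on all 8 arrays, and 4 and 6 of 14 without mutant array 5. Sqstm1, the cargo receptor p62, had 8.05, 7.88, 8.16, 7.41 and 7.90 on mutant arrays, against 9.86, 9.66 and 9.65 on wild-type arrays, a difference of -1.84 ± 0.18 (adjusted p = 1.11e-05). Another receptor, Tax1bp1, differed by -2.25 ± 0.17, and Wipi1, which binds the growing autophagosome membrane, by -1.57 ± 0.19. Each of these 3 stayed called in all settings. Ulk1, the kinase that starts autophagy and helps clear mitochondria from reticulocytes, fell by 0.72 ± 0.19, but the difference was 0.02 with median centring and a further Ulk1 probe gave 0.14. Gabarapl2, of the family that tags autophagosome membranes, fell by 0.49 ± 0.17, while its further probe gave 0.49 and median centring gave 0.26, both in the opposite direction. Map1lc3b, of the same system, had a difference of 0.39 ± 0.16 that did not pass here and passed in 6 of 21 alternatives, among them median centring (0.92, adjusted p = 0.00406). Mitophagy and mitochondrial dynamics genes had 6 higher and 3 lower of 15 tested (10 and 0 with median centring, 3 and 1 with the authors' values). Fkbp8, a mitophagy receptor, rose by 1.22 ± 0.20. Bnip3l, the receptor needed for mitochondrial clearance in reticulocytes, rose by 0.33 ± 0.05, but was at -0.50 with the authors' processed values. Fbxo7, a mitophagy-linked ubiquitin ligase subunit, fell by 0.80 ± 0.17, and Mfn1, a fusion protein, by 0.65 ± 0.15, but with median centring these were -0.069 and 0.04 and not called. Lysosome genes had 10 higher and 2 lower of 19 tested, with 7 of them detected on no wild-type array. Proton pump subunits were on both sides: beside Atp6v1e1, Atp6v1b2 was at least 1.72-fold higher, while Atp6v1g1 fell by 1.56 ± 0.13 and Atp6v1f by 1.01 ± 0.14. Atp6v1g1 was detected on only 1 of 5 mutant arrays, so the size of its fall is limited by the background level.

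Respiratory chain genes had the lower lists among the mitochondrial ones. Complex I had 10 lower and 5 higher of 26 tested, with a median of -0.06 that turned to 0.44 with median centring and 0.01 with the authors' values. The counts were 6 lower and 12 higher with median centring, and 11 lower and 2 higher without wild-type array 3. Among its 10 falls, all 10 members were detected on every array, whereas of the 5 rises none was detected on all 3 wild-type arrays. The whole table leaned the same way: 462 of 689 lower calls and 301 of 1135 higher calls were of genes detected on all 8 arrays. The accessory subunit gene Ndufb6 fell by 1.92 ± 0.21, Ndufa5 by 1.62 ± 0.23 and Ndufa13 by 1.07 ± 0.15. Complexes II to V had 15 lower and 11 higher of 34, with a median of -0.21 that turned to 0.24 with median centring, where 5 were lower and 16 higher. Atp5j, a coupling subunit of ATP synthase, had 7.003, 6.81, 6.71, 6.40 and 6.78 on mutant arrays, against 9.62, 9.58 and 8.86 on wild-type arrays, a difference of -2.61 ± 0.21. Uqcrc2, a core protein of complex III, differed by -2.06 ± 0.19, Cox6a1 of complex IV by -1.26 ± 0.14 and the catalytic ATP synthase subunit Atp5b by -1.08 ± 0.13. Cox5a rose by 1.37, Atp5d by 1.19 and Atp5g3 by 1.04, so subunits of 1 complex moved apart. TCA cycle and import genes had 7 higher and 2 lower of 15, with 8 detected on no wild-type array. The counts were 2 and 1 without wild-type array 2 and 2 and 2 without wild-type array 3. They were 4 and 1 of 13 without mutant array 3 and 2 and 0 with all 24 arrays, so the excess of rises changed with the arrays kept. Over all genes 42% were called without wild-type array 2 and 51% without wild-type array 3, against 61.7% in the main fit. Tomm7, of the outer membrane import pore, rose by 0.94 ± 0.19, and Ogdh, of the oxoglutarate dehydrogenase complex, fell by 0.61 ± 0.17 but was at 0.15 with median centring. Mitochondrial ribosome genes had 10 higher and 5 lower of 29, with 18 detected on no wild-type array, and 12 and 0 with median centring. Without wild-type array 2 they had 6 and 3, without wild-type array 1 they had 10 and 3, and without mutant array 3 or 4 they had 6 higher. Mrpl33 rose by 1.02 ± 0.20, and Mrpl20, Mrps33 and Mrpl37 had differences of -0.90, -0.86 and -0.80, which with median centring were -0.29, -0.12 and -0.17 and not called.

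Cytosolic ribosomal protein genes were mostly detected on all 8 arrays, 47 of 50 tested, and 25 rose while 8 fell, with a median of 0.33. With median centring 37 rose and 2 fell, while the authors' values gave 10 and 5. Rps2, of the small subunit, had 10.17, 10.39, 10.39, 10.26 and 10.14 on mutant arrays, against 12.13, 11.91 and 11.77 on wild-type arrays, a difference of -1.67 ± 0.12 (adjusted p = 9.56e-07). Rps27 rose by 1.36 ± 0.17, Rpl24 by 1.26 ± 0.12 and Rpl9 by 0.93 ± 0.12 (0.72 and not called with the authors' values), whereas Rpl41 fell by 0.71 ± 0.12. Transcripts for proteins of 1 particle thus had genotype differences from -1.67 to 1.36. Genes of this family have near-identical processed copies, and which copy a probe bound was not tested. Translation factors had 12 higher and 3 lower of 30 (21 and 1 with median centring). Eif5, which acts at start codon selection, rose by 0.84 ± 0.08 (0.58 and not called with the authors' values), Eef1d fell by 1.35 ± 0.14 and Eif2s3x, a subunit of the initiator tRNA carrier, by 1.12 ± 0.18 (-0.36 and not called with median centring), while the elongation factor gene Eef1g rose by 1.16 ± 0.21. Integrated stress response genes had 7 higher and 2 lower of 13, and 7 and 0 with median centring. The transcription factor gene Xbp1 fell by 0.87 ± 0.22, but was at -0.13 and not called with median centring. Chaperones had 12 higher and 5 lower of 21 (12 and 2 with median centring), with 12 detected on no wild-type array. Hspa8, the constitutive heat shock protein that uncoats clathrin, rose by 1.48 ± 0.24 and Hsph1, its exchange factor, was at least 1.23-fold higher. Ahsa1, the activator of Hsp90, fell by 1.75 ± 0.15, and the chaperonin subunit gene Cct8 by 1.70 ± 0.19.

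Antioxidant genes other than Gclm, Sod2 and Glo1 were also called in both directions. The glutathione and methylglyoxal list had 7 higher and 4 lower of 16 tested (8 and 2 with median centring), with a median of 0.29. Glrx, glutaredoxin, rose by 1.55 ± 0.20, and Hagh, which completes the glyoxalase pathway after Glo1, had 10.81, 11.01, 10.70, 10.38 and 10.89 in mutant against 11.62, 11.80 and 11.86 in wild type, a fall of 1.01 ± 0.14. Genes of successive steps of that pathway thus moved in opposite directions. The superoxide and peroxide list had 9 higher and 3 lower of 19 (13 and 1 with median centring), with a median of 0.47. Txnrd2, mitochondrial thioredoxin reductase, rose by 1.22 ± 0.17. Prdx2, the abundant peroxiredoxin of red cells, rose by 0.68 ± 0.09 but was at -0.11 with the authors' processed values. Gpx1, which reduces peroxides with glutathione, differed by -0.11 ± 0.05 and did not pass here, but was called in 3 of 22 alternatives, among them the authors' processed values (-0.87, adjusted p = 0.00786). Glycolysis genes had 6 higher and 0 lower of 11 tested by limma, with 7 higher and 0 lower at an unadjusted p below 0.05, and 6 of the 11 were detected on no wild-type array. The 6 became 2 without wild-type array 2, 3 of 24 with no detection filter and 1 with all 24 arrays. Bpgm, the enzyme of bisphosphoglycerate synthesis, was at least 1.88-fold higher and Ldha, lactate dehydrogenase, at least 1.66-fold higher.

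Red cell surface genes had 7 higher and 5 lower of 20 (10 and 1 with median centring), with a median of 0.09 that was -0.04 with the authors' processed values. Cd47, the marker that protects red cells from phagocytes, rose by 1.13 ± 0.15, and Aqp9, a water and glycerol channel, by 0.93 ± 0.15. Cd59a, which blocks complement lysis, fell by 1.28 ± 0.20 (-0.57 and not called with median centring). Slc4a1 rose by 0.22 ± 0.07 but was at -0.56 with the authors' values. Membrane skeleton genes had 2 higher and 4 lower of 12 (5 and 2 with median centring). Dmtn, dematin, which bundles actin at the spectrin junction, had 5.48, 4.91, 5.16, 4.96 and 5.13 on mutant arrays, against 7.72, 7.81 and 7.55 on wild-type arrays, a difference of -2.56 ± 0.17. Mpp1, a scaffold of the same junction, fell by 1.47 ± 0.15, the ankyrin gene Ank1 by 1.15 ± 0.17 and the tropomyosin gene Tpm1 by 0.94 ± 0.17. With median centring Ank1 was at -0.42 and Tpm1 at -0.25, and neither was called. Erythroid transcription factors had 7 higher and 2 lower of 18 (14 and 1 with median centring, 6 and 1 without wild-type array 2). Lmo2, a bridging factor of the erythroid GATA complex, fell by 1.24 ± 0.12, and Mafg, a partner of NF-E2, rose by 0.73 ± 0.16. Cell cycle and nuclear condensation genes had 8 lower and 3 higher of 17, with a median of -0.51 that turned to 0.12 with median centring, where 7 were lower and 8 higher. Without mutant array 3 or 5 they had 8 lower and 1 higher. Rb1, the retinoblastoma gene, fell by 1.69 ± 0.16, the tubulin gene Tuba1b by 1.30 ± 0.13, and Top2a, a topoisomerase of dividing cells, was below background on all mutant arrays and at least 2.14-fold lower. Interferon-induced genes had 10 higher and 3 lower of 23, with 1 lower without wild-type array 2 or 3. Irf1 rose by 1.502 ± 0.30 and Irgm1 by 0.83 ± 0.15, whereas Isg15, the ubiquitin-like modifier, fell by 1.09 ± 0.19.

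**Figure D3:**
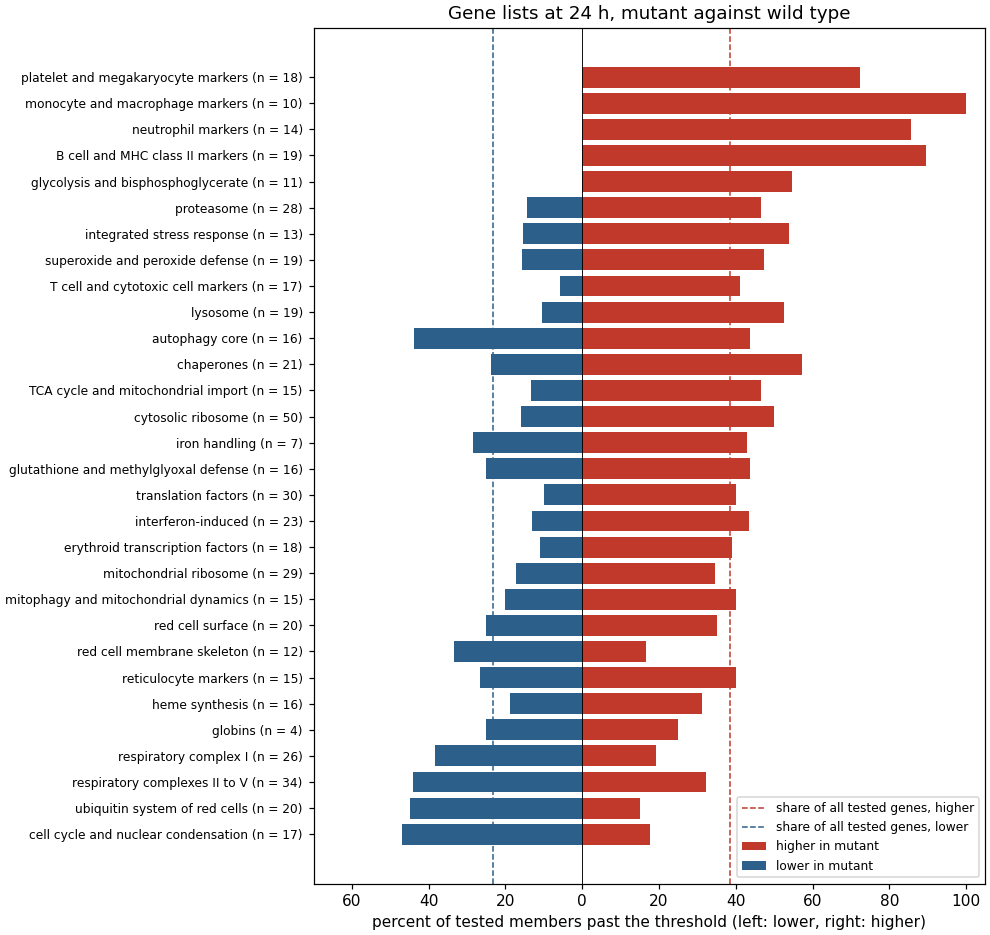
Percent of tested members of each gene list called lower (left, blue) or higher (right, red) in mutant at 24 h, ordered by median log2 difference, with n the members tested. Dashed lines give the shares over all tested genes, 23.3% lower and 38.4% higher, and the monocyte list reaches 100%. The medians of the ubiquitin, respiratory, cell cycle, red cell surface, globin and reticulocyte marker lists change sign under another scaling.

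Genes that mark other blood cells were called higher more often than lower in each of 5 lists. The B cell and MHC class II list had 17 higher and 0 lower of 19 tested by limma, the neutrophil list 12 and 0 of 14, the monocyte and macrophage list 10 and 0 of 10, the platelet list 13 and 0 of 18, and the T cell list 7 and 1 of 17. Over all tested genes 38.4% were called higher and 23.3% lower, and the T cell count of 7 higher is near that share. In either direction 47.1% of tested T cell members were called, against 61.7% of all tested genes. At an unadjusted p below 0.05 the 4 lists with 0 lower had 0 lower, and 18, 13, 10 and 14 higher. These counts come from the same fit and members at a looser threshold and are no separate support. The medians of the 5 lists, in the order given, were 0.75, 1.11, 1.12, 1.33 and 0.45. The counts changed when single arrays were left out. Without wild-type array 2 the B cell, neutrophil and T cell lists had 9, 3 and 4 members higher, and without wild-type array 3 they had 4, 4 and 3. Calls over all genes fell too, to 42% without wild-type array 2 and 51% without wild-type array 3, against 61.7%. What lowered the list counts was not tested. The neutrophil list had 5 of 12 higher without mutant array 3, the T cell list had 12 higher without mutant array 1, and the monocyte list had 7 to 10 higher over the arrays left out. With no detection filter the B cell list had 5 of 25 members higher and 0 lower, where 11.6% of all genes were called in either direction. With all 24 arrays the 5 lists had 6, 2, 6, 8 and 3 higher. Many entered the test through mutant arrays alone: 9, 3, 6, 1 and 11 of them were detected on no wild-type array. Their part in the other results was not tested.

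Neutrophil markers summed to 2956, 4067, 8213, 11738 and 3986 on mutant arrays, against 2750, 1752 and 2771 on wild-type arrays. All mutant arrays were above all wild-type arrays, mutant array 1 only narrowly, and mutant array 4 was the highest. Lyz1, a lysozyme, rose by 1.47 ± 0.39, a call lost with all 24 arrays. Its groups overlapped, with 9.57 on wild-type array 3, against 8.14 and 8.02 on wild-type arrays 1 and 2 and 9.23 on mutant array 1. Mpo, Elane, Itgam and 7 others of 27 neutrophil markers were detected on no array. Monocyte markers summed to 1712 to 4109 in mutant and 1085 to 1710 in wild type, and 13 of 24, including Ptprc, Spi1 and Adgre1, were never detected. Coro1a, an actin regulator of white cells, rose by 1.49 ± 0.38, a call lost with a replicate block and with all 24 arrays. Its groups overlapped, with 7.80 on mutant array 1 and 7.93 on wild-type array 1.

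B cell markers summed to 1532 on mutant array 1 and 2438 to 3841 on the other mutant arrays, against 1030 to 1743 on wild-type arrays, so the groups overlapped. Cd74, the invariant chain of MHC class II, rose by 1.24 ± 0.36. The Cd74 call was lost without wild-type array 3, with no detection filter, with a replicate block and with all 24 arrays. Blnk, Cr2, Ebf1, Ms4a1 and Pax5 were never detected. T cell markers summed to 978 to 1397 in mutant and 943 to 1023 in wild type, and Cd4, Cd8a and 6 others of 27 were never detected. Cd3e, a T cell receptor chain, fell by 0.68 ± 0.20 but was at 0.08 with median centring, whereas Cd3d, of the same receptor, was at least 1.24-fold higher.

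Platelet markers summed to 8327, 9805, 10692, 11205 and 12424 on mutant arrays, against 2130, 2692 and 11451 on wild-type arrays 1, 2 and 3. Ppbp, a platelet chemokine, had 9.72, 9.71, 9.74, 9.86 and 10.27 in mutant and 6.50, 7.45 and 9.73 in wild type. Its difference was 1.97 ± 0.52, a call lost with all 24 arrays. Alox12, platelet lipoxygenase, rose by 1.81 ± 0.53, a call lost without wild-type array 1 or 2 and with no detection filter. Without wild-type array 3 the list had 16 members higher and a median of 2.18, without array 1 it had 1 member higher and a median of 0.71, and without array 2 it had 1 member higher and a median of 1.08. Without mutant array 5 it had 8 members higher. Itgb3, Tubb1 and 5 others of 27 were never detected.

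**Figure D4:**
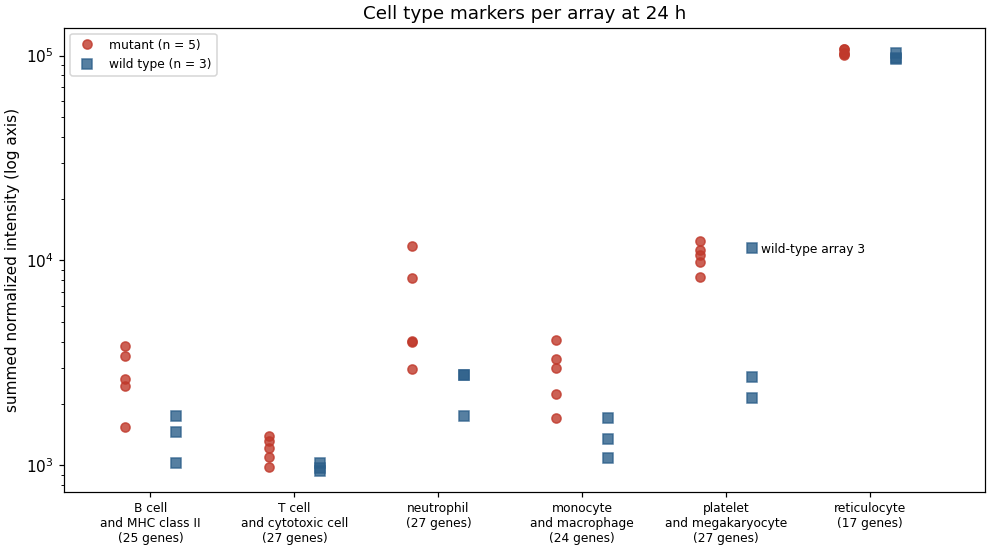
Summed normalized intensity of each marker list (vertical axis, log scale) on the 5 mutant arrays (red circles) and 3 wild-type arrays (blue squares) at 24 h. Reticulocyte markers span 100262 to 107851 in mutant and 95980 to 103371 in wild type. Their sums rest largely on bright probes whose values quantile normalization ties between arrays. Wild-type array 3, at 11451, lies within the mutant range of 8327 to 12424 for platelet markers.

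Whether the genotype difference at 24 h was the same as at 12 h was tested on the 16 arrays of both times, normalized together. Of 4488 genes tested 565 differed, 338 with a 24 h difference above that at 12 h and 227 below it. Of 1772 genes called at both times, 1752 had the same direction and 20 the opposite. The count depended on the fit, with 82 genes under median centring, 61 with all 24 arrays and 272 to 1182 over left-out arrays. The split moved too, to 68 above and 14 below under median centring. With the authors' processed values 590 genes differed, 566 above and 24 below. When arrays of 1 genotype and replicate number were treated as a random block over the times, with a correlation of 0.455, 1597 genes differed, 704 above and 893 below, and the labels do not say whether a number marks 1 culture. Values in this fit differ from those above, and the probe with the highest mean over the 16 arrays stood for each gene. Gabarapl2 was at 0.45 at 24 h in this fit against -0.49 above, and Eif5 at 1.41 against 0.84.

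Ube2o had the smallest p. Its mean was 13.23 in mutant and 14.20 in wild type at 24 h, and 10.53 in mutant and 14.31 in wild type at 12 h. The difference was -0.97 at 24 h and -3.78 at 12 h, a change of 2.81 ± 0.24 (adjusted p = 1.12e-06). Memo1, a protein of cell motility, likewise differed by -1.06 at 24 h and -3.50 at 12 h. The adiponectin receptor gene Adipor1 differed by -0.63 and -2.14, and Ubb-ps, annotated as a pseudogene of ubiquitin B whose parent transcripts may bind the same probe, by -0.50 and -1.73. In these 4 genes the wild-type mean was slightly lower at 24 h than at 12 h, as for Memo1 with 8.14 and 8.49, and the mutant mean was higher at 24 h, for Memo1 7.08 and 4.99. Aldh1a1 (-2.65 and -5.004) was detected on no mutant array at 12 h, and Srp14 (3.37 and 5.79) on no wild-type array at 12 h, so their 12 h differences are set by the background level. Ncoa4 had differences of -2.60 and -5.09 (adjusted p of the change 0.000427) and Paqr9 of -3.11 and -5.40 (0.000356). Glo1 went the other way, with 2.64 at 24 h and 0.58 at 12 h (0.00161). Sod2, Ndufa1, Hypk, Rexo2, Tmbim6 and Tfrc did not pass the test of a change with or without the random block. Gclm and Serinc1 did not pass without it (adjusted p = 0.0716 and 0.122) and passed with it (0.00507 and 0.0168).

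**Figure D5:**
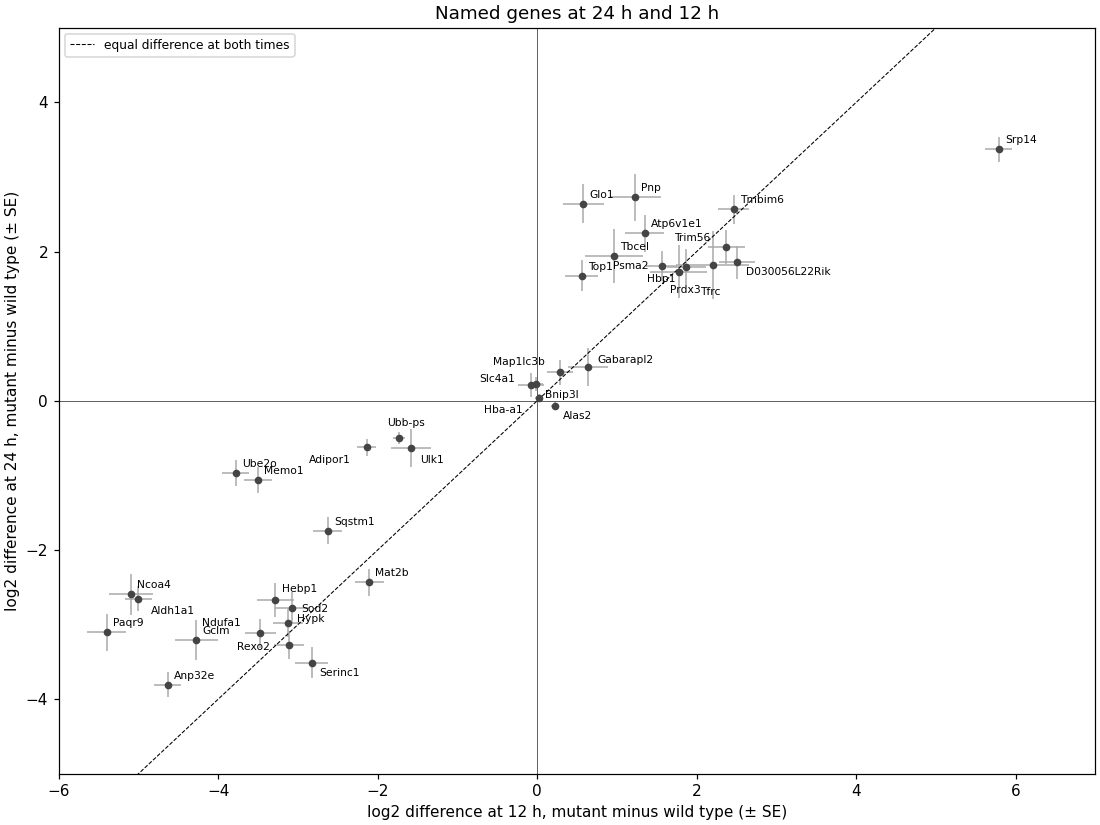
Log2 difference between genotypes (mutant minus wild type, ± SE) at 24 h (vertical axis) against that at 12 h (horizontal axis) for the genes named most in the text, with the dashed line at equal differences. Ube2o, Memo1, Ncoa4, Paqr9 and Aldh1a1 lie above the line on the negative side, and Glo1 lies above it at 2.64 and 0.58. Gabarapl2 is drawn at 0.45 at 24 h, opposite in sign to its main value of -0.49.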

How the data were processed

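RNA of cultured mouse reticulocytes was measured on Illumina 1-colour bead arrays, with RNA purified and amplified by commercial kits and labelled by the DASL protocol, per the labels' protocols. The authors deposited unnormalized mean bead intensity per probe, with no background subtraction, and a detection p-value in steps of 1/798, per the file headers and the table's own name. Scanner software was not given in the sources used here, nor was the method behind the authors' processed values, which are linear intensities of unstated centring. The arrays titled 12 h carry a later hour in the deposited table's column names, and the titles were followed. The 24 h arrays, 8 in all, were background-corrected with normexp (offset 16, negative controls inferred from the detection p-values), quantile-normalized and log2-transformed with neqc of limma 3.58.1 in R 4.3.3. Probes detected (p below 0.01) on at least 3 of 8 arrays were kept, 3780 of 25697, of which 3545 had a gene name from the platform annotation. The probe with the highest mean stood for each of 2958 genes. Genotypes were compared with lmFit and eBayes (intensity trend) and Benjamini-Hochberg adjustment, threshold 0.05. The same model with an interaction term compared 24 h with 12 h. An exact permutation test compared the detected share. The fit alone was run on simulated log2 values, which does not test background correction, normalization or the detection filter. P-values measure the spread between the biological replicates, and the number of arrays limits precision. A tested probe averaged over a median of 42 beads per array. No chip or scan batch was stated, and batches were not tested.

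The genes named were the 12 largest rises and falls that passed the threshold, did not overlap between groups and were detected on every array of a group, up to 4 members per gene list with the smallest p, the 10 genes with the highest mean, the 6 with the smallest interaction p, and a short set of reticulocyte genes; other members given by value illustrate their list. The members, gene lists and rules were chosen with earlier results of these data known. Alternatives covered background correction, offset, scaling, detection filter, arrays included, array weights, moderation, replicate block and each array left out. Figures used matplotlib 3.10.9.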

Additional observations from a re-analysis of the deposited data

Results flagged for a closer look

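Among 139 named genes, the mutant group of 5 arrays was examined for an array far from the other 4, and 5 genes had one. Such a flag arises by chance in about 1 in 20 groups, and 5 of 139 is below that share. Hbp1 was 7.14 on mutant array 4, against a median of 7.64 on the other mutant arrays. Irgm1 was 8.73 on mutant array 4, against 8.41. Fth1 was 14.87 on mutant array 1, against 14.94, where quantile normalization gives the most intense probes tied values. Ubb-ps was 14.14 on mutant array 3, against 13.72. Ppbp was 10.27 on mutant array 5, against 9.73. In each case the mutant arrays stayed on the same side of the wild-type mean.

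The genotype difference was larger or smaller at 24 h than at 12 h, by a test of the change itself, in the 6 genes with the smallest p. The 24 h difference minus the 12 h difference was 2.81 for Ube2o, 1.23 for Ubb-ps, 2.35 for Aldh1a1, 2.44 for Memo1, 1.52 for Adipor1 and -2.42 for Srp14. Ube2o, Ubb-ps, Memo1 and Adipor1 kept the call under all 21 alternatives. Srp14 lost it with the authors' processed values (-0.36), and Aldh1a1 lost it when all 24 arrays were fitted (2.19).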

How the results depend on the processing

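The count of 1824 called genes was 794 with probes detected on all 8 arrays, 930 with normalization and fit on all 24 arrays, 930 with a replicate block and 827 with filter, normalization and fit on all 24 arrays, an alternative chosen after seeing the data. Leaving out 1 array gave 1227 to 1988. With fewer genes or samples some of these counts fall by construction, and the cause of the rest was not tested. Whether replicate numbers pair the arrays could not be settled with so few arrays. Same-numbered mutant and wild-type arrays had residual correlations of -0.201, 0.218 and -0.0828, and differently numbered ones ranged from -0.212 to 0.28. The share of calls that were higher was 62.2%, against 88.2% (median centring), 77.9% (authors' values), 46.2% (no detection filter), 39.4% (all-array detection) and 51.4% (replicate block). The difference in detected share ranged from 6.19 to 8.22 points over left-out arrays, and without any of mutant arrays 2 to 5 the exact p was 0.0571. The 565 genes whose difference changed between 12 and 24 h became 82 (median centring), 848 (no filter), 1597 (replicate block, random) and 61 (all 24 arrays), and 272 (without wild-type 12 h array 2) to 1182 (without mutant 12 h array 1) over left-out arrays, with 313 to 362 without wild-type 12 h array 3, mutant 12 h array 5 or wild-type 24 h array 1 or 2.

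Direction reversed with median centring for Cd3e (0.0755), Gabarapl2 (0.26), Hba-a1 (-0.0186), Hbb-b2 (0.40), Mfn1 (0.0396), Ogdh (0.15) and Ulk1 (0.0246), with the authors' values for Bnip3l (-0.50), Fth1 (-0.38), Hba-a1 (-0.77), Prdx2 (-0.11) and Slc4a1 (-0.56), and with array weights for Hba-a1 (-0.000307). The cause was not tested. Of the named-gene results under the alternatives, 2824 kept direction and side of the threshold, 162 lost the threshold and 11 gained it, 2 for Alas2, 3 for Gpx1 and 6 for Map1lc3b. With the replicate block the B cell, neutrophil, monocyte, platelet and T cell lists had 1, 5, 4, 4 and 0 members higher, and 14 of 134 called genes followed by name lost the call. Low intensity limits the lists in which many members were detected on mutant arrays alone.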

Other observations

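Further genes with large falls are given here, chosen after their values were seen and with no test of a shared role. Esco2, which acetylates cohesin, and Dnmt1, the maintenance DNA methyltransferase, were detected on all wild-type arrays and on no mutant array, and were at least 4.94-fold and 3.86-fold lower. The ubiquitin ligase gene Rchy1 and Ubl4a, a chaperone of tail-anchored membrane proteins, were likewise at least 4.03-fold and 5.09-fold lower. Such genes entered the test through wild-type arrays alone. All 18 of that kind were called lower, so their calls are no result about them. Cdc25b, a phosphatase that triggers mitosis, had 6.00, 5.85, 5.77, 5.43 and 6.05 on mutant arrays, against 8.29, 8.03 and 8.27 on wild-type arrays, a difference of -2.38 ± 0.18. Anapc13, of the anaphase-promoting complex, differed by -2.60 ± 0.20 and Rangap1, of nuclear transport, by -2.32 ± 0.18. Chmp4b and Chmp1b, which encode ESCRT-III proteins that bud and cut membranes, differed by -2.23 ± 0.15 and -2.11 ± 0.16, and a further Chmp4b probe gave -2.34. Gadd45a, a stress-induced cell cycle gene, differed by -2.12 ± 0.19, with a further probe at -2.10.

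A few rises were chosen in the same way. Carhsp1, which binds messenger RNA, had 11.68, 11.86, 11.62, 11.68 and 11.74 on mutant arrays, against 9.90, 10.16 and 9.98 on wild-type arrays, a difference of 1.70 ± 0.10. Hnrnpm, a splicing factor, differed by 1.73 ± 0.17 and its further probes by 1.65 and 1.51. Tra2a, another splicing factor, was detected on no wild-type array and was at least 2.31-fold higher.

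Of 94 genes with several probes and a call of at least 1 log2 unit, 88 had all further probes on the same side and 76 had them past the threshold too. Mta3, Myl12b and Plec had another probe past the threshold in the opposite direction: Mta3 gave -1.63 and 0.50, Myl12b 1.16 and -0.47, and Plec -1.05 and 0.76. The direction of these 3 genes is therefore not settled by the arrays. Among the 740 genes with mean log2 intensity between 4.54 and 4.95, 348 were called higher and 24 lower. Among the 740 genes between 6.46 and 14.9, 296 were called higher and 235 lower.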
